A study of Schmidtea mediterranea with 9 samples.

Results

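Among 46724 assembled components (groups of contigs that an assembler joined into what should be 1 transcript or gene), 48 stood apart in planarian stem cells after head amputation while lying within the range of the 0 h control after tail amputation. In 5 of them the level was higher after the anterior wound, and in the other 43 it was lower. The 48 were chosen by their own measured levels. A component entered when its mean over the 9 libraries was between 2 and 500 CPM (counts scaled to a common depth, that of all mapped reads without the component comp0_c0). All 3 anterior libraries had to lie above, or all 3 below, each of the other 6, and the mean of the posterior libraries had to fall within the range of the 3 control libraries taken at 0 h. The anterior mean also had to differ from the mean of the other 6 by at least 0.4 on the log2 scale. Their levels are therefore given as a description of these libraries, and no test of those levels supports the list.

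The animals were starved planarians (Schmidtea mediterranea) of the asexual strain. Anterior-wound animals had lost the head 48 h earlier, posterior-wound animals had lost the tail and the pharynx 48 h earlier, and the control was taken at 0 h, with 3 libraries in each group. In all 9 libraries poly(A) RNA came from X1 cells of the region in front of the pharynx, sorted by flow cytometry as live cells with more than the unreplicated DNA content. No control was sampled at 48 h, so for any difference from the control the wound and the elapsed time cannot be told apart. The labels do not say whether replicates came from separate animals or pools, so a p-value here measures only how far these libraries differ, and that spread may be technical. The sort takes all live cells in the DNA-content gate, which may hold cells other than neoblasts.

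Neoblasts are the dividing cells of adult planarians and the source of every new cell in regeneration. They include pluripotent cells and progenitors already committed to eye, gut, muscle, nervous, excretory or epidermal fates. After head amputation the tissue in front of the pharynx has to replace a brain and eyes, and after loss of the tail and pharynx the same region borders a wound that faces backwards. Position in the planarian body is set by Wnt signals from the tail and Wnt inhibitors from the head, and many of the genes that carry this information are expressed in muscle. The deposited files pair no component with a gene name, so none of the 48 can be given a gene or a function here, and neither the cell type nor the known position, wound and lineage genes could be checked by name. In RNA from sorted populations, fewer cells of a type and less RNA per cell cannot be told apart.

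Mapped reads ran between 14674800 and 23700877 per library. Control replicate 1 held the fewest. It also had the largest share of unmapped reads, 11.4% against 3.96% to 5.46% in the other 8 libraries, and the smallest share of reads on comp0_c0, 9.19% against 12.5% to 16.9%. After comp0_c0 was removed, 1 read was worth between 0.0496 and 0.0750 CPM, and a count of 0 would have allowed a level of up to 0.149 to 0.225 CPM (3 reads). Such floors, and the Poisson intervals given for counts, cover counting error only.

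The choice of members narrowed in steps. Of 12239 components in the level range, all 3 anterior libraries were above the other 6 in 41 (0.335%) and below them in 99 (0.809%). The posterior mean lay within the control range in 22 of the 41 and in 67 of the 99. The minimum difference of 0.4 then left 5 and 43. At the edge of that threshold, comp8424_c0 and comp15757_c0 were just inside at log2 ratios of 0.40 and 0.41, and the nearest components left out had 0.37 and 0.34. On the lower side the nearest members had log2 ratios of -0.41 and -0.42, and the nearest components left out had -0.39 and -0.38.

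The number of members changed when a library was left out, which also changes the rule: fewer libraries have to be separated, and with a control left out the range allowed for the posterior mean can only narrow or stay. The counts are therefore not a measure of what a single library contributes. Without anterior replicate 1, 2 or 3 in turn, the rule found 17, 17 and 15 higher components and 128, 144 and 68 lower ones. Without posterior replicate 1, 2 or 3 it found 9, 7 and 15 higher and 50, 47 and 170 lower components. Without control replicate 1, 2 or 3 it found 5, 3 and 9 higher and 15, 68 and 48 lower components. The lower count moved by more than 1.5 times without any of the 3 anterior libraries, without posterior replicate 3 and without control replicate 1 or 2. Of the 15 lower components found without control replicate 1, 9 were among the 43. Of the 5 higher components found without it, only 1 was among the 5 members. With control replicate 1 left out of the means, the median log2 ratio of the 5 higher members was 0.36, and 2 of them still reached 0.4.

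The lists of members set apart by the 2 wounds leaned in opposite directions. After the anterior wound 89.6% of the 48 were lower. When the same rule was applied with the wounds exchanged, the posterior wound set apart 119 higher and 17 lower components, of which 12.5% were lower. The counts and the shares in each direction moved with the scaling of the libraries, while the side that held most members did not. With comp0_c0 kept in the library totals, the anterior wound set apart 0 higher and 49 lower components and the posterior wound 166 higher and 14 lower. With trimmed-mean (TMM) scaling, which sets the bulk of components equal between libraries, the anterior wound set apart 8 higher and 25 lower components and the posterior wound 43 higher and 22 lower. With DESeq2's size factors the numbers were 7 higher and 28 lower (anterior wound) and 50 higher and 23 lower (posterior wound). The lower side thus held most of the anterior components under each of these 4 scalings, 100% with comp0_c0 kept, 75.8% with TMM and 80% with DESeq2's size factors. Before the conditions on the other wound's mean and the size of the difference, neither lean held under every scaling. The 3 anterior libraries were above the other 6 in 72 components and below them in 51 with TMM, and in 53 and 52 with DESeq2's size factors. The 3 posterior libraries were above the other 6 in 387 components and below them in 124 without comp0_c0, in 119 and 127 with TMM, and in 134 and 125 with DESeq2's size factors. The comparison of the 2 lists shares the control libraries and was not tested.

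**Figure D1:**
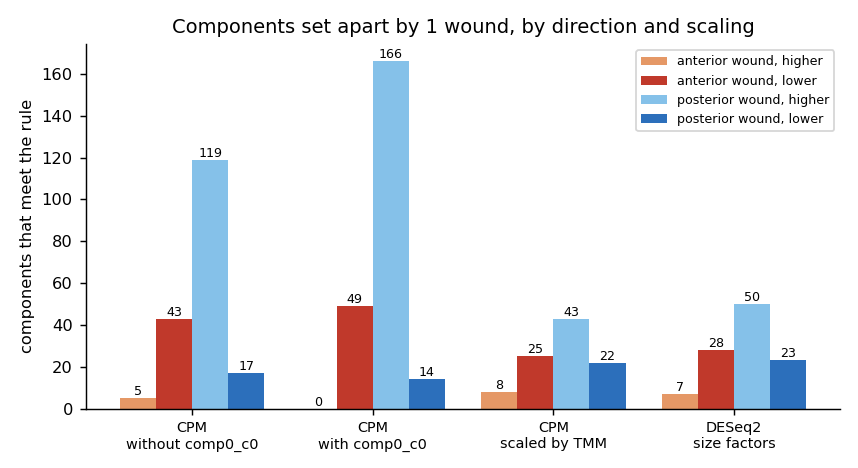
Number of components (vertical axis) that meet the rule for either wound, higher and lower, under 4 scalings of the libraries (horizontal axis). The anterior bars hold more lower than higher components under each scaling (43 against 5 without comp0_c0), and the posterior bars more higher than lower ones (119 against 17).

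The 5 higher members differed from the other libraries by small amounts. Their log2 ratio of the anterior mean over the mean of the other 6 ran between 0.40 and 0.52, with a median of 0.41. The largest ratio was that of comp29514_c0, a single contig of 493 bases. It had 2.57, 2.41 and 2.88 CPM after the anterior wound, 1.5, 2.05 and 1.36 CPM in the posterior-wound libraries, and 1.35, 2.38 and 2.34 CPM in the control. These levels rest on 45, 40 and 45 reads after the anterior wound, 22, 32 and 22 in the posterior-wound libraries, and 18, 48 and 46 in the control. The lowest anterior library lay 0.02 above the highest control library on the log2 scale, so the groups touched without overlapping.

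The next by size of ratio was comp13677_c0, a single contig of 1353 bases with a log2 ratio of 0.48. It had 2.57, 2.65 and 2.82 CPM after the anterior wound, 1.91, 2.18 and 1.36 CPM in the posterior-wound libraries, and 2.55, 1.68 and 1.83 CPM in the control. Control replicate 1 reached the lowest anterior library to within 0.01 on the log2 scale, while the posterior libraries all stayed below. The other 3 are named because the list is short, after their values were seen.

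A wider gap was seen for comp28401_c0, a contig of 510 bases. It had 7.6, 7.30 and 7.81 CPM after the anterior wound, 6.13, 6.15 and 5.99 CPM in the posterior-wound libraries, and 4.65, 6.19 and 5.03 CPM in the control. The means were 7.57 ± 0.259, 6.09 ± 0.0841 and 5.29 ± 0.804 CPM in the anterior, posterior and control libraries (SD, n = 3 each). The anterior libraries lay close together and 0.24 above the nearest other library on the log2 scale, the widest gap of the 5.

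The pattern was much the same for comp15757_c0, a contig of 1584 bases. Its levels were 10.3, 9.47 and 9.93 CPM after the anterior wound, 7.83, 7.94 and 8.28 CPM in the posterior-wound libraries, and 4.28, 8.28 and 8.18 CPM in the control. Apart from control replicate 1, which was far below the rest, the posterior and control libraries were alike. The higher member with the most reads, comp8424_c0, has 4 contigs, the longest of 1381 bases. It had 16.4, 17.7 and 17.4 CPM after the anterior wound, 12.4, 11.3 and 13.5 CPM in the posterior-wound libraries, and 11, 15.9 and 14.1 CPM in the control.

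Control replicate 1 was the lowest of the 9 libraries in 4 of the 5 higher members. By the rule no anterior library can be the lowest there. The same share over all components was not counted, so nothing is read from this count. The share of unmapped reads of control replicate 1 and its low share of comp0_c0 are given above, and their part in these differences was not tested. Summed over the 5 members, the level was 39.4, 39.6 and 40.9 CPM after the anterior wound, 29.7, 29.6 and 30.5 CPM in the posterior-wound libraries, and 23.8, 34.4 and 31.4 CPM in the control. The exact 95% Poisson intervals of the nearest anterior and nearest other library overlapped in each of the 5.

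**Figure D2:**
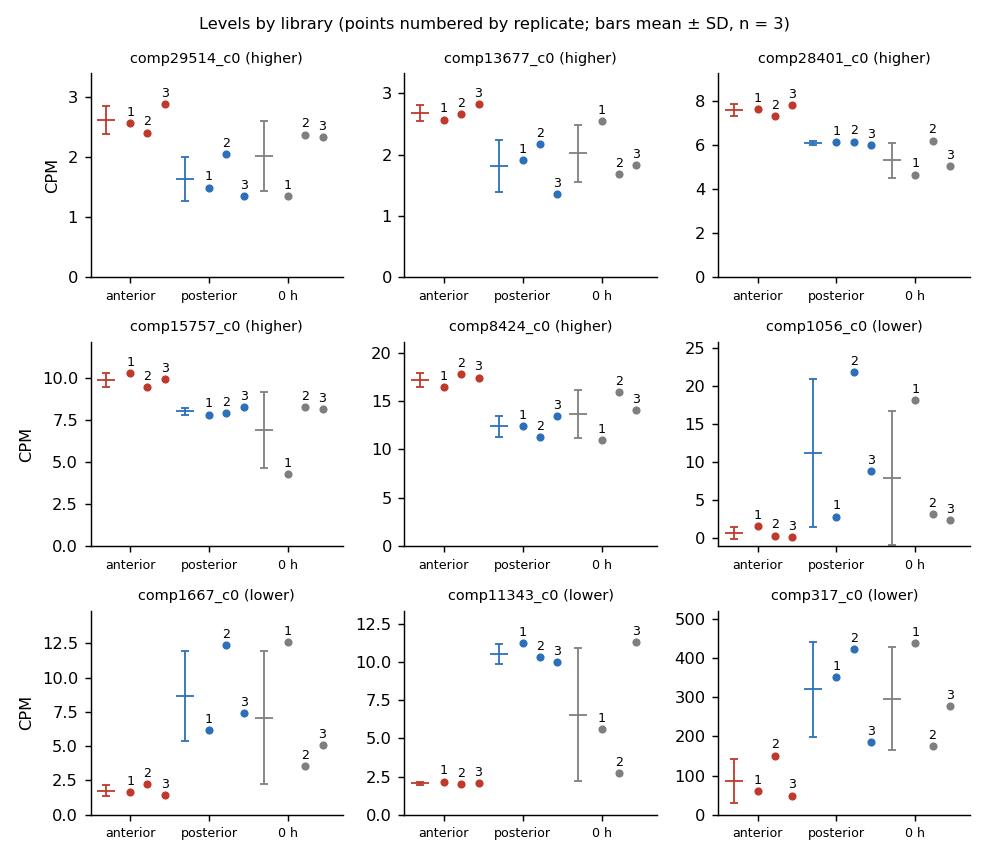
Level in CPM (vertical axes, a scale per panel) in each library for the 5 higher members and 4 of the lower members, by group. Points are libraries numbered by replicate, and the bar beside them is the mean ± SD (n = 3). In comp1056_c0 and comp1667_c0 posterior replicate 2 and control replicate 1 stand above the other libraries, and in comp11343_c0 the 3 anterior libraries lie between 1.99 and 2.17 CPM.

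The 43 lower members covered a wider range. Their log2 ratios ran from -3.73 to -0.41 with a median of -0.84, against a median of -0.05 over all 12239 components in the level range, and in 19 of the 43 the other 6 libraries averaged at least 2 times the anterior mean. Against each other group by itself the median log2 ratio was -0.71 for the anterior over the posterior mean and -0.87 for the anterior over the control mean. The posterior over the control mean had a median of -0.07 and ran from -0.70 to 0.68, within what the rule allows.

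**Figure D3:**
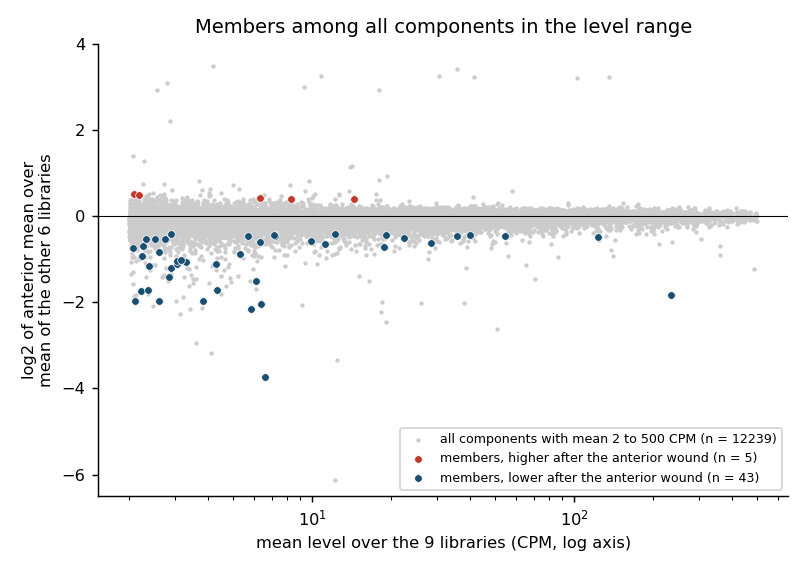
The log2 ratio of the anterior mean over the mean of the other 6 libraries (vertical axis) against the mean level over the 9 libraries (horizontal log axis, CPM) for all 12239 components in the level range, with the 5 higher and 43 lower members in colour. The higher members lie between 0.40 and 0.52, and the lower members between -3.73 and -0.41, most of them at the low end of the level range.

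The largest ratio among the lower members was that of comp1056_c0, a short contig of 294 bases. It had 1.60, 0.362 and 0.192 CPM after the anterior wound, 2.86, 21.8 and 8.83 CPM in the posterior-wound libraries, and 18.1, 3.17 and 2.44 CPM in the control. In reads these were 28, 6 and 3 after the anterior wound, 42, 341 and 143 in the posterior-wound libraries, and 241, 64 and 48 in the control. Posterior replicate 2 and control replicate 1 were far above their own groups, and the SD of the posterior and control groups (9.70 and 8.83 CPM, n = 3 each) was close to their means of 11.2 and 7.90 CPM.

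The same pair of libraries led in comp1667_c0, a contig of 878 bases with a log2 ratio of -2.16. It had 1.66, 2.23 and 1.41 CPM after the anterior wound, 6.19, 12.4 and 7.41 CPM in the posterior-wound libraries, and 12.6, 3.57 and 5.08 CPM in the control. The means were 1.77 ± 0.422 CPM, against 8.65 ± 3.27 CPM in the posterior-wound libraries and 7.08 ± 4.84 CPM in the control (SD, n = 3 each). The coefficient of variation was 23.9% in the anterior, 37.7% in the posterior and 68.3% in the control libraries.

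Replicates lay closer together after both wounds in comp11343_c0, which has 2 contigs, the longest of 428 bases. It had 2.17, 1.99 and 2.05 CPM after the anterior wound, 11.2, 10.3 and 10.0 CPM in the posterior-wound libraries, and 5.63, 2.73 and 11.3 CPM in the control. The 3 posterior libraries lay together well above the 3 anterior ones, while the control libraries were spread over the whole distance between them.

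The highest CPM among the 48 was that of comp317_c0, a component of 3 contigs, the longest of 556 bases, which was singled out after its values were seen. It had 60.7, 151 and 49.2 CPM after the anterior wound, 351, 424 and 186 CPM in the posterior-wound libraries, and 438, 174 and 278 CPM in the control. It was the only one of the 48 in which the 95% Poisson intervals of the nearest anterior library and the nearest other library did not overlap. Even so, anterior replicate 2 lay much nearer to control replicate 2 and posterior replicate 3 than to the other anterior libraries.

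The widest gap between the anterior libraries and the nearest other one, 0.84 on the log2 scale, was that of comp2592_c0, which has 3 contigs, the longest of 1364 bases. It had 1.14, 0.905 and 0.769 CPM after the anterior wound, 2.04, 4.55 and 2.35 CPM in the posterior-wound libraries, and 4.88, 2.28 and 2.29 CPM in the control. The gap over all 43 had a median of 0.11 on the log2 scale and was as small as 0.0011. In 42 of the 43 the Poisson intervals of the nearest anterior and nearest other library overlapped.

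Most lower members were of low abundance. Their mean levels ran from 2.06 to 235 CPM with a median of 4.32, against a median of 17.8 CPM over all components in the level range. Of the 43, 22 were under 5 CPM (51.2%, against 23.7% over all). Spread within groups was also wider than over all components in the range, which had higher levels. No set matched in level was compared. The rule asks for a posterior mean within the control range, which favours components with spread controls. The wider spread of the controls therefore follows in part from the choice. The median coefficient of variation was 15.5% after the anterior wound, 18.1% in the posterior-wound libraries and 37.3% in the control, against 9.64%, 13.9% and 19.5% in the same groups over all components in the range. A single contig made up 33 of the 43 (76.7%), and 63.1% of all components in the range. The longest contig had a median of 1044 bases, against 1187 bases over all. The shortest was 282 bases and the longest 5138.

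The libraries did not contribute evenly. Control replicate 1 was the highest of the 9 libraries in 32 of the 43 lower members (74.4%), and in 24.3% of all components in the range. Posterior replicate 2 was highest in 5 (11.6%, against 22.9% over all), control replicate 3 in 5 and posterior replicate 1 in 1. Control replicate 1 exceeded both other controls in 37 of the 43 (86.0%, against 36.1% over all), and posterior replicate 2 exceeded both other posterior libraries in 27 (62.8%, against 47.3%). By the rule no anterior library can be the highest in a lower member, and the condition on the posterior mean favours spread controls. These shares therefore follow in part from the choice. At the other end, where the rule leaves only anterior libraries, anterior replicate 3 was the lowest library in 24 members, anterior replicate 2 in 12 and anterior replicate 1 in 7.

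**Figure D4:**
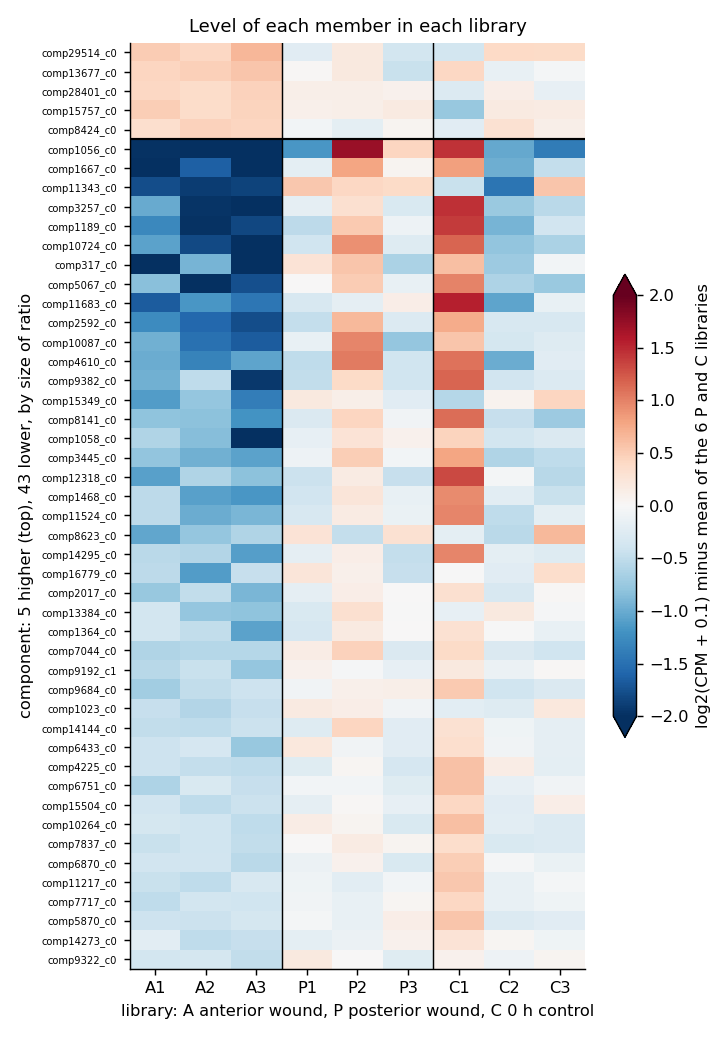
Level of each of the 48 members (rows, the 5 higher above the line and the 43 lower below it, by size of ratio) in each library (columns), as log2(CPM + 0.1) minus the mean of the 6 posterior and control libraries. In most of the lower members with the largest ratios, control replicate 1 (C1) and posterior replicate 2 (P2) carry the strongest colour on the high side. Exceptions are comp11343_c0, where C1 is at -0.44 and control replicate 3 is highest at 0.56, and comp11683_c0, where P2 is at -0.18. Control replicate 2 (C2) is the nearest to the anterior libraries in 19 of the 43.

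Set against the mean of the posterior and control libraries on the log2(CPM + 0.1) scale, the median over the 43 was -0.61, -0.60 and -0.91 in anterior replicates 1 to 3 and -0.16, 0.17 and -0.16 in posterior replicates 1 to 3. In control replicates 1 to 3 it was 0.55, -0.30 and -0.19. Control replicate 2 thus stood next to the anterior libraries, and it was the nearest other library in 19 of the 43, ahead of posterior replicate 3 in 10. Summed over the 43, the level was 418, 528 and 395 CPM after the anterior wound, 866, 1025 and 679 CPM in the posterior-wound libraries, and 1228, 639 and 772 CPM in the control. Without comp317_c0, which holds a large part of that sum, it was 357, 377 and 346 CPM after the anterior wound, 515, 601 and 493 CPM in the posterior-wound libraries, and 791, 465 and 493 CPM in the control.

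The lower members varied together within the posterior and control groups, and less so within the anterior group. Over the 6 posterior and control libraries, the deviations from the group means had a median correlation of 0.73 between pairs of the 43, and 82.3% of pairs were positively correlated. Between pairs of every 10th component in the range the median was 0.08 and 53.9% were positive. These correlations are across 6 libraries that share their depth and their preparation, and members were chosen partly by the same values, so they are given as a description.

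Control replicate 1 and posterior replicate 2 were the highest pair of libraries in 24 of the 43. By the rule no anterior library can be in that pair. The same count over all components in the range was not made, so the 24 only divide the list for description. In those 24 the median log2 ratio was -1.11, and 16 of them had a ratio of at least 2-fold. In the other 19 the median was -0.52 and 3 had a ratio of at least 2-fold. Since the 24 were picked for these libraries being highest, larger ratios there than in the 19 follow in part from the choice. Control replicate 1 over the mean of the other controls had a median log2 ratio of 1.33 in the 24 and 0.45 in the 19, against -0.08 over all components in the range. Posterior replicate 2 over the other posterior libraries had median log2 ratios of 0.61, 0.02 and 0.08 in the same 3 sets. With both libraries left out of the means, the median log2 ratio was -0.66 in the 24, -0.39 in the 19 and -0.59 over all 43. Applied anew without both, the rule found 23 lower components, of which 9 were among the 43, and 6 higher ones, of which 0 were among the 5. The part of the unmapped reads of control replicate 1 in these values was not tested.

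The fit across all components was read beside the levels. The quasi-likelihood test of edgeR, with Benjamini-Hochberg adjustment, was run on 21322 components, all 48 members among them. For the anterior wound against the mean of the posterior wound and the control, 1 component (0.00469%) passed an adjusted p of 0.05 and none of the 48 did. Without adjustment 474 components (2.22%) were under 0.05, and 40 of the 48 were among them, 4 of the higher and 36 of the lower members. Since the rule used the same contrast, nothing is read from that share. limma-voom made 1 call (0.00469%), with 0 members among them, and DESeq2 made 15 (0.0705%), 2 of them members.

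For the anterior wound against the control, the edgeR test made 6 calls (0.0281%) and limma-voom 6 (0.0281%), with 0 members among either. DESeq2 made 24 (0.113%), 1 of them a member, and 819 components (3.84%), 36 of them members, had an unadjusted p under 0.05 in the edgeR test. For the anterior against the posterior wound, the edgeR and limma-voom tests made 0 calls each (0% and 0%). DESeq2 made 14 (0.0658%), 2 of them members, and 581 components (2.72%), 24 of them members, had an unadjusted p under 0.05 in the edgeR test. The 3 contrasts share the anterior libraries. The rule used the levels behind each of them, so nothing is read from how many members were called or under 0.05.

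The 2 members that DESeq2 called were comp1667_c0 and comp11343_c0. For comp1667_c0 the edgeR log2 difference from the mean of the posterior wound and the control was -2.08 (SE 0.43, adjusted p = 1.00 in edgeR's quasi-likelihood test), and DESeq2 gave it adjusted p-values of 5.96e-04 in that contrast, 0.0178 against the control and 0.00396 against the posterior wound. For comp11343_c0 the edgeR log2 difference was -1.95 (SE 0.38, adjusted p = 0.880), the lowest adjusted p among the 48 in that contrast. It was -2.27 against the posterior wound (SE 0.42, adjusted p = 0.904). DESeq2 gave adjusted p-values of 4.67e-04 for comp11343_c0 against the mean of both, 0.0703 against the control and 5.62e-04 against the posterior wound. The calls of these 2 members thus differed between the tools on the same counts. Since the members were chosen by those counts, these p-values are a description and do not support the list.

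In the same edgeR fit the log2 difference of comp1056_c0 was -3.60 with an SE of 0.96. It was -4.97 without anterior replicate 1, -2.85 without control replicate 1, and -2.46 without control replicate 1 and posterior replicate 2. The log2 difference of comp317_c0 was -1.75 with an SE of 0.41. On the higher side comp29514_c0 had a log2 difference of 0.57 with an SE of 0.25 and comp13677_c0 one of 0.55 with an SE of 0.23. None of these 4 passed the adjusted threshold.

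The rule did not use how reads were divided among the contigs of a component. It used their sum, to which the level of each contig contributes. Of the 48 members 11 have several contigs, 10 lower and 1 higher, with 30 contigs in all. All 30 contigs lay on the same side as their sum, and in 14 of them the 3 anterior libraries were separated from the other 6. Since members were chosen by that sum, both counts follow in part from the choice. The share of separated contigs over all contigs was not counted. A contig-usage test (edgeR's diffSpliceDGE, with Benjamini-Hochberg adjustment) was run on 15549 contigs of 4728 components for the anterior wound against the mean of the other groups. It called 0 contigs (0%), and 35 (0.225%) had an unadjusted p under 0.05. Of the members, 23 contigs of 9 components were tested, 0 of them under 0.05 without adjustment, and limma's version of the test also called 0. The lowest unadjusted p was 0.0638, in comp2592_c0.

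The share of a component's reads on its most counted contig was then set side by side. In comp2592_c0 it was 40%, 40% and 25% after the anterior wound, 60.0%, 73.2% and 55.3% in the posterior-wound libraries, and 72.3%, 58.7% and 57.8% in the control. These shares rest on few reads of the component. It had 20, 15 and 12 reads after the anterior wound, 30, 71 and 38 in the posterior-wound libraries, and 65, 46 and 45 in the control. The mean share was 35.0 ± 8.66% (SD, n = 3) after the anterior wound and 62.9 ± 7.82% (SD, n = 6) in the other libraries, a difference of -27.9 percentage points. A two-sided exact permutation test gave p = 0.0238, the smallest that the 84 arrangements of 3 and 6 libraries allow, and 0.0714 after Benjamini-Hochberg adjustment over the 3 components tested in this way. With an anterior library left out the smallest p that the arrangements allow was 0.0714, which is the value each of these gave. The component was picked for the lowest p in the contig-usage test, so the result is not independent of that test. A leading contig is also the largest part of the sum that the rule used. The share tests here and below are therefore not free of the choice of members.

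In comp11343_c0 the leading contig held 47.4%, 42.4% and 59.4% of the reads after the anterior wound, 72.7%, 67.1% and 69.1% in the posterior-wound libraries, and 69.3%, 47.3% and 65.5% in the control. The component had 38, 33 and 32 reads after the anterior wound, 165, 161 and 162 in the posterior-wound libraries, and 75, 55 and 223 in the control. The difference between the mean shares was -15.4 percentage points (exact permutation p = 0.0714, adjusted 0.107). With 1 library left out it ran from -20.3 to -11.8 points, with exact permutation p-values between 0.107 and 0.214 except without control replicate 2, where it was -19.0 points (exact permutation p = 0.0357). The higher member comp8424_c0 had a mean share of 27.2% after the anterior wound and 27.9% in the other libraries, a difference of -0.70 points (exact permutation p = 0.762). Over the 11 members of several contigs, the anterior shares did not overlap those of the other libraries in 2, comp2592_c0 and comp317_c0. The same count over all components of several contigs was not made, so nothing is read from it.

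**Figure D5:**
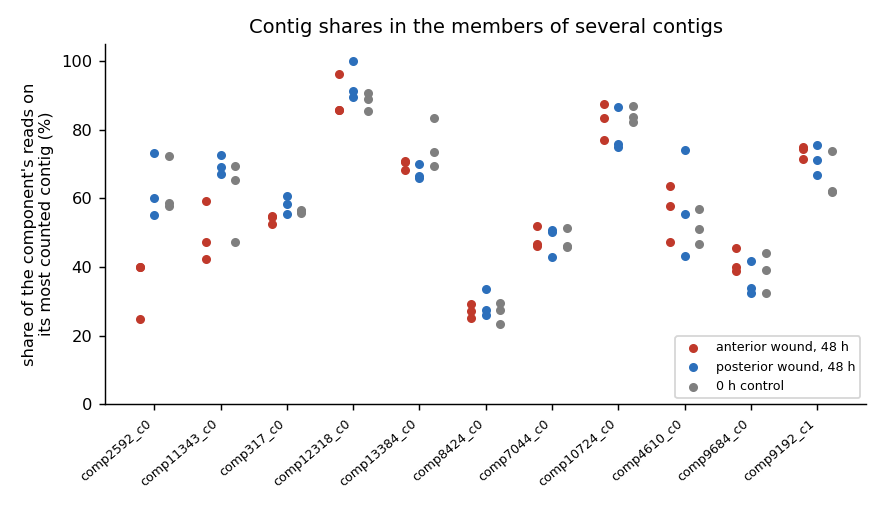
Share of a component's reads on its most counted contig (vertical axis, %) in each library, for the 11 members of several contigs (horizontal axis). Points are libraries, coloured by group. In comp2592_c0 the anterior libraries lie between 25% and 40% and the others between 55.3% and 73.2%, and in most other members the groups overlap.

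Only 2 of the 48 have another component of the same assembly group in the files, and both were looked at after the members were known. The neighbour of the lower member comp8623_c0, comp8623_c1, had a log2 ratio of -0.24 at a mean of 6.05 CPM, with the anterior libraries not separated. The neighbour of the lower member comp9192_c1, comp9192_c0, had a log2 ratio of -0.55 at 0.538 CPM, below the level range.

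In the authors' deposited table of comparisons, 9 components had an adjusted p under 0.05 in the anterior comparison and 23 in the posterior one, and 0 of the 48 were among either. The authors' deposited table gave the 43 lower members ratios to the control between 0.0947 and 0.788 (median 0.569) in the anterior comparison, and between 0.616 and 1.54 (median 0.936) in the posterior one. The authors' deposited table gave the 5 higher members ratios between 1.31 and 1.48 in the anterior comparison and between 0.767 and 1.12 in the posterior one. The deposited summed counts repeat posterior replicate 2 as posterior replicate 3 in all 7189 components of several contigs. Whether the authors' comparisons were made from those counts is not given. The posterior calls, and the posterior ratios of the 11 members of several contigs, may therefore carry that repeat.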

How the data were processed

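Poly(A) RNA of sorted X1 cells was extracted with TRIzol and made into Illumina libraries, per the labels' protocols. Bowtie2 2.0, SAMtools and DESeq are the tools in the submitters' processing notes. Which assembly they used is not given in the sources at hand. The authors deposited raw read counts per contig for each library, with the contig length in bases and the unmapped reads. They also deposited a table of counts summed per component, and a DESeq table with the ratio (fold) of each wound to the control and its p-value, per the file headers.

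Counts were summed per component from the 9 per-library tables and turned into CPM over mapped reads without comp0_c0. Unmapped reads, between 3.96% and 11.4% of a library, stayed out. No per-library column was without a sample or group (0). The components and lists described were chosen with earlier results of these data known. Lists of marker, position and wound genes were prepared, but the files pair components with no names, so 0 could be matched.

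Across components, edgeR 4.0.16 (R 4.3.3) was used with TMM scaling, filterByExpr (minimum count 10), a quasi-likelihood fit over all 3 groups and Benjamini-Hochberg adjustment at 0.05. The common coefficient of variation was 26.9%. DESeq2 1.42.0, limma-voom (limma 3.58.1), other scalings, filters and thresholds, a replicate block, contigs without summing and leaving out libraries were alternatives. In each direction the 2 members with the largest ratio were named, and for contig usage up to 2 with the lowest p. Any other identifier was chosen after its values were seen.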

Additional observations from a re-analysis of the deposited data

How the results depend on the processing

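The counts of members moved with most settings. With comp0_c0 kept in the totals the rule found 0 higher components (and 49 lower, 37 of them shared with the 43). TMM scaling found 8 and 25 (3 and 22 shared), and DESeq2's size factors 7 and 28 (3 and 26 shared). The deposited summed table, in which the column of posterior replicate 3 repeats posterior replicate 2 in all 7189 components of several contigs, gave 9 and 82 (5 and 42 shared). A minimum difference of 0.6 left 0 and 27, a minimum mean of 5 CPM left 3 and 21, and dropping the condition on the posterior mean gave 16 and 58. Contigs without summing gave 8 and 56. With 1 library left out at a time the higher count ran between 3 and 17 and the lower count between 15 and 170. Without control replicate 1 and posterior replicate 2, a setting chosen after seeing the data, the rule gave 6 and 23, and without control replicate 1 and posterior replicate 3, chosen likewise, 10 and 77 (0 and 11 shared). The median log2 ratio of the 43 stayed between -0.89 and -0.66 with any 1 library left out.

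Against the mean of both other groups, edgeR called 2 components with no filter, 2 with a filter at 5 CPM and 2 on contigs, and between 0 and 1 with 1 library left out. DESeq2 called 15, 24 and 14 components in the 3 contrasts. Against the control the edgeR calls ran between 1 and 4 with 1 library left out, and 3 were made without control replicate 1 and posterior replicate 2. Whether the calls on contigs without summing fell on contigs of members was not counted. In every other edgeR or limma alternative run no member was called. The cause was not tested. With a replicate block the calls were 1, 5 and 0, and 0 for contig usage, so it changed no call of a member. Whether equal replicate numbers mark paired libraries was not settled. The deviations correlated above 0.1 in 4 of 9 same-numbered pairs and ran from -0.345 to 0.491. Pairs with different numbers were not compared. Depth limits the members near 2 CPM most, since 1 read was worth up to 0.0750 CPM.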
